A study of Homo sapiens with 24 samples.

Results

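NRF2 (gene NFE2L2) is the transcription factor that controls the cell's defence against oxidants and electrophiles. The 34 genes described here are targets attributed to it: enzymes of quinone and haem detoxification, glutathione, thioredoxin and NADPH metabolism, conjugation and export, the ferritins, and 4 genes of other roles. The aldo-keto reductases, another group of NRF2 targets, were left out. Members were chosen by gene symbol, and each was matched to a row of the gene count table, which holds 60666 genes. All 34 passed the filter on low counts in the A549 fit and in the fit of both lines. In the H460 fit 32 passed, and GPX2 and UGT1A6 did not.

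RNA was sequenced from A549 (lung adenocarcinoma) and H460 (large cell lung carcinoma) cells in medium with 10% serum, transfected with a control siRNA (siNT, labelled wild type) or an siRNA against RICTOR (siRIC, labelled as a knockdown). RICTOR is the defining subunit of mTORC2, a kinase complex upstream of AKT. Total RNA and RNA from polysomal fractions, which holds mRNAs carrying several ribosomes, were sequenced from each, giving 8 groups of 3 libraries. The labels do not give the number of siRNA sequences, the dose or the time after transfection. Cells of both lines are grown from tumour cells without stroma, and each line is a single model of its tumour type.

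In unstressed cells KEAP1 holds NRF2 for ubiquitination by a CUL3 ligase. Electrophiles modify KEAP1, NRF2 then accumulates, pairs with a small MAF protein and binds the antioxidant response element (ARE) of its targets, where BACH1 can compete with it. A549 and H460 are both known to carry KEAP1 mutations, so a high level of NRF2 targets without any stress is part of the background of these cells. As the design stands, the comparisons address whether RICTOR depletion altered these mRNAs, whether it did so among the mRNAs on ribosomes, and how the lines differ at baseline.

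The ARE is the sequence through which NRF2 reaches its targets. Matches to its core near the members' start sites are shown for some genes that the results below turn on and for some classical targets. The core searched was TGACNNNGC on both strands, in RefSeq windows (GRCh38.p14) from 250 bases before to 50 bases after each start. Windows were found for 24 members, and 11 of these genes held a match. UGDH, HMOX1, NR0B1 and NQO1 were not among the 11, having either no window or no match in it. By windows, 12 of 31 member windows (38.7%) held one, against 4687 of 35116 windows of all genes (13.3%). Of the 14 matches, 2 also hold TGACTCA, the AP-1 motif, and so overlap with it. Capitals mark the core, with 10 bases on each side, on the strand on which it reads as TGAC.
GPX2, chr14:64942849-64942877, plus strand: atccccaggaTGACTTAGCaaaaacaggt
EPHX1, chr1:225825266-225825294, plus strand: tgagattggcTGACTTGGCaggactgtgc
MGST1, chr12:16347135-16347163, plus strand: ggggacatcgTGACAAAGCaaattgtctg
GCLM, chr1:93909446-93909474, plus strand: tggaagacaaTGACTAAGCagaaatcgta
TXNRD1, chr12:104215670-104215698, plus strand: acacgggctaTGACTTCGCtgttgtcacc
ME1, chr6:83431170-83431198, minus strand: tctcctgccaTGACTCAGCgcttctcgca
CBR1, chr21:36069855-36069883, minus strand: ccagctagccTGACTTTGCagaacccgca
PIR, chrX:15493289-15493317, plus strand: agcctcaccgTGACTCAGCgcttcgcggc
The core lies 114 to 122 bases before the start of GPX2 and 70 to 78 bases before that of EPHX1, while in MGST1 it lies at transcribed bases 31 to 39 and in PIR at 27 to 35. A match is a description of letters and does not show a site in use.

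Library totals ran from 19087204 to 26550160 estimated counts, and levels are given as CPM, the share of the library's counts on a common scale after TMM scaling. CPM is not corrected for transcript length, so it is compared within a gene only. RICTOR checks the labels: each siRIC library lay below each siNT library of its line and fraction, and it fell by 1.38 ± 0.23 (log2, SE, n = 3 libraries per group) in A549 total RNA (edgeR quasi-likelihood test with Benjamini-Hochberg adjustment, adjusted p = 0.0159) and by 1.49 ± 0.23 in polysomal RNA (adjusted p = 0.007). Its estimates in H460 were −1.52 ± 0.30 (adjusted p = 1) and −1.90 ± 0.31 (adjusted p = 0.62). Even the targeted gene thus did not pass the test over all genes in that line, in a fit without a block for the replicate number. Its unadjusted p there was 0.000252 in total and 4.25e-05 in polysomal RNA (edgeR quasi-likelihood test). KRT8 and KRT18 were at 2155 CPM or more in A549 and 590 CPM or more in H460. KRT19 was nearly absent from A549 (at most 0.99 CPM), CDH1 was at 0 in every H460 library, and EPCAM was at most 7.05 and 1.32 CPM in A549 and H460. The alveolar markers SFTPB, SFTPC and NKX2-1, the endothelial markers PECAM1, CDH5 and VWF, and the leukocyte markers PTPRC and CD3E reached at most 0.27 CPM. The fibroblast marker DCN was at 3.56 to 18.3 CPM in H460 and at most 0.13 CPM in A549, and PDGFRB at 3.04 to 7.97 CPM in H460 and at most 0.33 CPM in A549. COL1A1 was at 3.59 to 10.02 CPM in A549 and 0.43 to 2.17 CPM in H460. CD68, a macrophage marker, was at 24.4 to 49.0 CPM in A549 and 39.1 to 145.8 CPM in H460. The 2 H460 polysomal libraries numbered 3 (siNT and siRIC) and the A549 siRIC polysomal library numbered 1 stood apart from the other libraries of their groups. Correlation of the polysomal-to-total profile with the other cultures of the line was 0.53 and 0.60 at H460 number 3 against 0.67 to 0.69 for the rest, and 0.69 at A549 siRIC number 1 against 0.75 to 0.78.

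With siRIC, the members lay lower in A549 as a group, by small amounts. In total RNA 32 of 34 members had estimates below 0 and the median log2 difference was −0.24, against 0.007 over all 15396 genes tested, of which 48.4% were below 0. In polysomal RNA 31 of 34 were below 0, with a median of −0.27 against 0.017. Without the siRIC polysomal library numbered 1, which stood apart, 28 of 34 were below 0 and the median was −0.245. Single members mostly did not pass: GPX2 alone was called lower in total RNA, 1 of 34 members where 0.247% of all genes were called lower, and UGDH alone in polysomal RNA, 1 of 34 where 0.455% were. At an unadjusted p under 0.05 there were 10 members in total RNA and 12 in polysomal RNA, against 6.81% and 12.5% of all genes. Of the 5 epithelial markers 0 were called in A549, 4 were below 0 in total and 3 in polysomal RNA, and their medians were −0.63 and −0.61, with KRT8 at −0.66 ± 0.21 in total RNA (adjusted p = 0.325), KRT18 at −0.64 ± 0.19 (adjusted p = 0.246) and CDH1 at −0.63 ± 0.33 (adjusted p = 0.816). CD68 was at −0.57 ± 0.16 in total RNA (adjusted p = 0.207) and −0.52 ± 0.16 in polysomal RNA (adjusted p = 0.178). Their part in the members' result was not tested. In bulk RNA, fewer cells of a state and less RNA per cell cannot be told apart.

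Glutathione peroxidase 2 (GPX2, ENSG00000176153, chromosome 14, 64939158 to 64942745), a selenoprotein that reduces peroxides with glutathione, had the largest change in total RNA. In A549 total RNA it stood at 115.6, 101.5 and 118.0 CPM in the siNT libraries and at 68.5, 54.7 and 66.1 CPM in the siRIC libraries, listed by replicate number. The groups did not overlap, and GPX2 fell by 0.82 ± 0.16 on the log2 scale (edgeR quasi-likelihood test, adjusted p = 0.0353). Its polysomal values were 96.6, 83.9 and 123.6 CPM against 66.4, 56.9 and 72.1 CPM. There the siRIC libraries were again all below the siNT ones, with an estimate of −0.63 ± 0.16 and an adjusted p of 0.0816. The call in total RNA rested on all 6 libraries: it was lost when any single library of either group was left out, with adjusted p from 0.0834 to 0.231 and estimates from −0.88 to −0.74.

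UDP-glucose dehydrogenase (UGDH, ENSG00000109814, chromosome 4, 39498755 to 39527439) makes UDP-glucuronate, the donor for glucuronidation. In A549 polysomal RNA it was at 376.8, 364.1 and 373.5 CPM in the siNT libraries and at 257.3, 205.2 and 237.3 CPM in the siRIC libraries. These groups were far apart and the siNT libraries nearly equal, and UGDH fell by 0.67 ± 0.14 (adjusted p = 0.0336). In total RNA it was at 327.5, 348.2 and 383.0 CPM against 262.7, 239.0 and 306.3 CPM, also without overlap, with an estimate of −0.39 ± 0.14 (adjusted p = 0.437). The polysomal call was lost on leaving out any of 5 of the 6 libraries (adjusted p up to 0.163). It was kept without the A549 siRIC library numbered 1, which stood apart, and the adjusted p was then 0.0111. Without that library, 3 members were called lower (UGDH, MGST1 and PIR), where 1.22% of all genes were.

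The 4 members with the smallest p were GPX2, EPHX1, HMOX1 and MGST1 in total RNA and UGDH, GPX2, MGST1 and NR0B1 in polysomal RNA, and of these EPHX1, HMOX1, MGST1 and NR0B1 passed the test in neither fraction. Epoxide hydrolase 1 (EPHX1), which opens epoxides of drugs and carcinogens, was at 156.5, 127.9 and 186.9 CPM in the siNT libraries and 100.6, 80.6 and 112.5 CPM in the siRIC libraries in total RNA, an estimate of −0.68 ± 0.21 (adjusted p = 0.288). In polysomal RNA EPHX1 was at 233.8, 226.8 and 293.7 against 114.1, 160.3 and 222.2 CPM. Its groups did not overlap in either fraction, though the siRIC polysomal libraries spread widely.

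Microsomal glutathione transferase 1 (MGST1), a membrane enzyme that conjugates and reduces lipid peroxides, was at 400.1, 382.1 and 430.1 CPM in the siNT libraries and 296.4, 257.9 and 296.6 CPM in the siRIC libraries in A549 total RNA. In polysomal RNA it was at 573.7, 460.4 and 621.7 against 445.0, 316.9 and 303.7 CPM. All siRIC libraries lay below all siNT libraries in both fractions, and the estimates were −0.51 ± 0.17 (adjusted p = 0.343) and −0.63 ± 0.17 (adjusted p = 0.102).

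Haem oxygenase 1 (HMOX1), which breaks down haem, was at 118.5, 127.0 and 114.2 CPM in the siNT libraries and 82.8, 84.3 and 88.8 CPM in the siRIC libraries in A549 total RNA. Its polysomal values were 199.5, 229.3 and 189.8 against 119.8, 178.1 and 185.5 CPM, so in that fraction the groups nearly touched. The estimates were −0.49 ± 0.16 (adjusted p = 0.339) and −0.35 ± 0.16 (adjusted p = 0.367). NR0B1, an orphan nuclear receptor, was at 45.2, 52.2 and 45.5 CPM against 31.1, 37.2 and 32.4 CPM in total RNA. In polysomal RNA it was at 74.9, 79.9 and 64.1 against 37.6, 57.9 and 54.2 CPM, again without overlap, with an estimate of −0.55 ± 0.16 (adjusted p = 0.157).

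**Figure D1:**
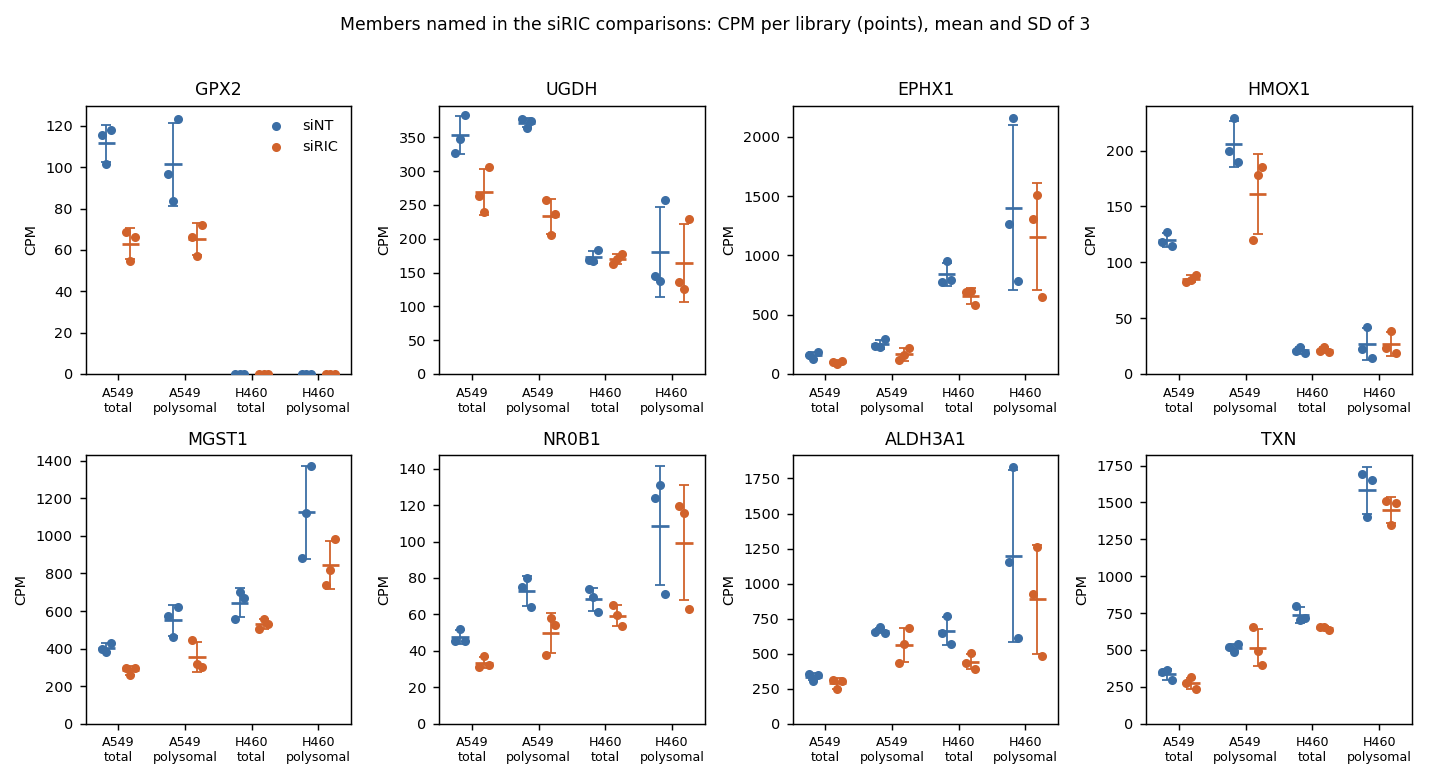
CPM in each library (points, replicate numbers 1 to 3 from left to right), with mean and SD of 3, for 8 members named in the siRIC comparisons, by line and fraction; blue is siNT and orange is siRIC. The A549 groups of GPX2 and UGDH do not overlap, GPX2 is near 0 CPM in H460, and the H460 polysomal points spread widely for EPHX1, ALDH3A1 and NR0B1.

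Across the whole set, every siRIC library lay below every siNT library for 17 of 34 members in A549 total RNA, where 9.61% of all genes did so, and for 14 of 34 in polysomal RNA, where 7.15% did. No member showed the opposite pattern, every siRIC library above every siNT library, in either fraction. The 12 members of both sets were GPX2, EPHX1, HMOX1, MGST1, UGDH, NR0B1, ME1, PGD, PRDX1, TALDO1, TKT and TRIM16L. They are given as a list only, since the share of all genes in both sets is not given. Pair by pair, the siRIC library was lower for 31, 31 and 33 of the 34 members in total RNA and for 26, 31 and 28 in polysomal RNA, and the median difference of a pair ran from −0.43 to −0.20. The pair counts are likewise given without a share of all genes. The members share their libraries, so they are not independent of each other.

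By role, the NADPH-supplying enzymes had one of the lower medians in both fractions. PGD, TALDO1 and TKT of the pentose phosphate pathway, malic enzyme ME1 and isocitrate dehydrogenase IDH1 had a median of −0.32 in total RNA, from −0.49 (TKT) to −0.10 (IDH1), and of −0.39 in polysomal RNA; none of the 5 passed. The 7 genes of glutathione synthesis and use had a median of −0.21 in total RNA. Within them the catalytic and modifier subunits of glutamate-cysteine ligase, GCLC and GCLM, stood at −0.11 ± 0.14 and −0.21 ± 0.13, and the cystine transporter SLC7A11 at −0.05 ± 0.20. Of the thioredoxin group, peroxiredoxin PRDX1 was at −0.24 ± 0.14 and thioredoxin reductase TXNRD1 at −0.14 ± 0.13 in total RNA.

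NQO1, the quinone reductase often read as a marker of NRF2 activity, was at 1156, 1104 and 1056 CPM in the siNT libraries and 971, 931 and 920 CPM in the siRIC libraries in A549 total RNA. The siRIC libraries were all lower, but the estimate was −0.23 ± 0.14 (adjusted p = 0.939), and the polysomal groups overlapped because the siRIC library numbered 1 was at 2646 CPM. The carbonyl reductases CBR1 and CBR3 were the 2 members above 0 in total RNA, at 0.06 ± 0.15 and 0.01 ± 0.20. UGT1A6, a glucuronosyltransferase, held at most 1.08 CPM in any library and is not read for direction.

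**Figure D2:**
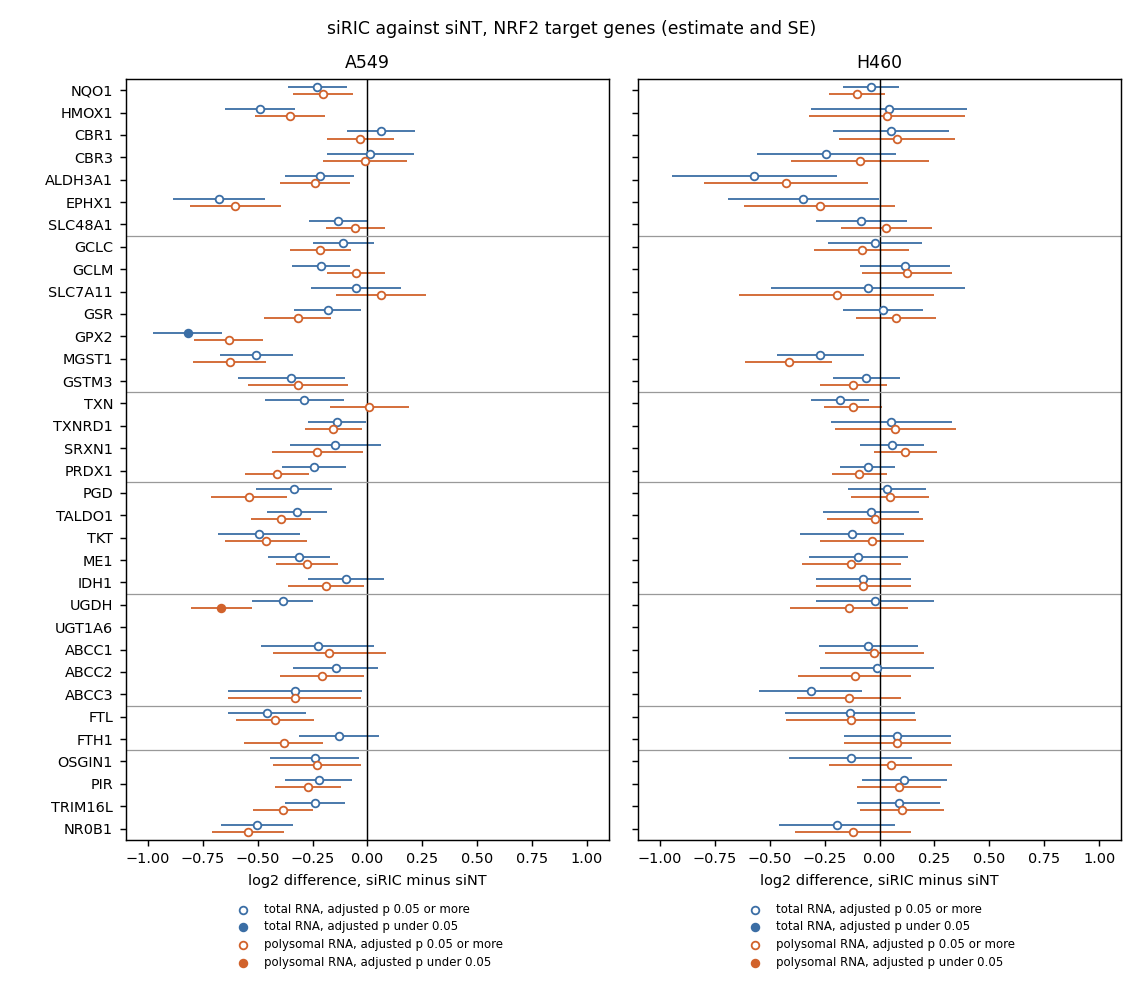
Log2 difference of siRIC against siNT for each member (estimate and SE, n = 3 libraries per group) in total (blue) and polysomal (orange) RNA of A549 and H460; filled points have an adjusted p under 0.05 over all genes, grey lines divide roles, and UGT1A6 is not drawn because its counts are low. Nearly all A549 points lie left of 0, with GPX2 in total and UGDH in polysomal RNA filled, while the H460 points straddle 0.

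With the replicate number as a block, which the labels' batch field provides, 2 members were called in A549 total RNA (GPX2 and EPHX1), where 1.11% of all genes were called lower. In polysomal RNA 6 were called lower with the block (GPX2, UGDH, EPHX1, MGST1, PRDX1 and NR0B1), where 2.12% of all genes were. The blocked estimates moved little: GPX2 was at −0.82 ± 0.11 in total RNA (adjusted p = 0.00113) and UGDH at −0.67 ± 0.12 in polysomal RNA (adjusted p = 0.00401).

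In H460 no member was called with siRIC. In total RNA 0 of 32 members passed with edgeR, 0 were at an unadjusted p under 0.05 and DESeq2 called 0; the same 3 counts were 0 in polysomal RNA. The edgeR test called no gene at all in either fraction of that line (0% of 14586 genes), DESeq2 called 4 and 1 genes, and 167 and 252 genes had an unadjusted p under 0.05. RICTOR was among the genes edgeR did not call, and the fit has no replicate block. The lack of calls therefore does not show that the members were unchanged. The members' medians were −0.051 and −0.078, against 0.017 and 0.021 over all genes, and 22 and 20 of the 32 were below 0. The polysomal median did not keep its sign, running from −0.112 to 0.061 as single libraries were left out, and was −0.06 without both libraries numbered 3. Every siRIC library lay below every siNT library for 4 of 32 members in total RNA (ALDH3A1, EPHX1, TKT and TXN), where 6.31% of all genes did so, and for 2 in polysomal RNA (NQO1 and PRDX1), where 1.73% did.

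The H460 members with the smallest p were as follows. ALDH3A1, an aldehyde dehydrogenase, was at 648.0, 770.4 and 565.5 CPM in the siNT libraries and 435.9, 502.0 and 390.9 CPM in the siRIC libraries in total RNA. The siRIC libraries were all lower, with an estimate of −0.57 ± 0.37 (adjusted p = 1). In polysomal RNA ALDH3A1 ranged from 611 to 1835 CPM in the siNT libraries and from 481 to 1258 CPM in the siRIC libraries, the lowest value of each group being the library numbered 3.

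Thioredoxin (TXN), the small protein that reduces disulfides, was at 800.2, 699.9 and 716.1 CPM against 653.9, 654.8 and 636.0 CPM in H460 total RNA, an estimate of −0.18 ± 0.13. MGST1 was at 556.4, 703.1 and 671.8 CPM against 506.8, 559.8 and 528.6 CPM in total RNA, where the groups overlapped slightly. Its polysomal values were 881.1, 1121 and 1373 against 737.1, 816.8 and 984.0 CPM, an estimate of −0.41 ± 0.20 (adjusted p = 1), with the siRIC library below the siNT library of its number in all 3 pairs. ABCC3, an export pump for conjugates, was at 88.1, 74.3 and 82.5 CPM against 76.5, 56.9 and 62.6 CPM in total RNA. Sulfiredoxin SRXN1 lay on the other side of 0 in polysomal RNA, at 496.4, 428.4 and 375.2 CPM in the siNT libraries and 517.9, 467.7 and 417.2 CPM in the siRIC libraries, with overlapping groups.

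UGDH, called in A549, was at 169.1, 167.4 and 184.0 CPM in the siNT libraries and 163.1, 170.5 and 177.0 CPM in the siRIC libraries in H460 total RNA. Its estimate there was −0.02 ± 0.27, and the sign changed with single libraries left out. GPX2 could not be compared in H460, where the highest library held 0.16 CPM.

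The difference between the lines in the siRIC effect was tested itself, as an interaction over all 24 libraries. No member passed in total RNA (0 of 34, where 0% of all genes were called) or in polysomal RNA (0 of 34, where 0.00606%, a single gene, was). At an unadjusted p under 0.05 there were 0 and 1 members, where 2.31% and 3.5% of all genes were, and DESeq2 called 0 in both. Without GPX2 and UGT1A6, whose H460 counts are too low to read, the H460-minus-A549 difference was above 0 for 29 of 32 members in total RNA and 28 of 32 in polysomal RNA, with medians of 0.20 and 0.23. The largest in polysomal RNA was PGD, 6-phosphogluconate dehydrogenase, at 0.58 ± 0.26 (adjusted p = 1). A member called in A549 is thus not shown to respond differently in H460.

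The polysomal-to-total ratio of the members was not called as changed by siRIC. In A549 0 of 34 members passed and 0 were at an unadjusted p under 0.05, with 0% of all genes called; in H460 the counts were 0 of 32 and 0, with 0% of all genes called. DESeq2 called 0 members in each. Of all genes, 1.15% in A549 and 0.61% in H460 were at an unadjusted p under 0.05, and the fits have no replicate block. The lack of calls therefore does not show that the ratios were unchanged. The members' medians were −0.019 in A549 and 0.014 in H460, against 0.019 and 0.001 over all genes. Neither median kept its sign with single libraries left out: the A549 median lay between −0.052 and 0.047, and that of H460 between −0.062 and 0.114. Without the A549 siRIC polysomal library numbered 1 the A549 median was 0.047.

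Of 24 regulators of the pathway, 24 tested in A549 and 23 in H460, edgeR called 0 with siRIC in any of the 4 comparisons. At an unadjusted p under 0.05 there were 2 in each A549 fraction and 0 in H460. Of all genes, 6.81% in total and 12.5% in polysomal RNA of A549 were, and 1.14% and 1.73% in H460. NFE2L2 itself stood at −0.18 ± 0.13 in A549 total RNA and −0.06 ± 0.13 in polysomal RNA, and at 0.12 ± 0.26 and 0.08 ± 0.26 in H460. KEAP1 was at 0.06 ± 0.18 and 0.08 ± 0.18 in A549, and BACH1 at 0.04 ± 0.17 and 0.04 ± 0.17. NFE2L3 had the smallest p of the regulators in both A549 fractions, at 0.41 ± 0.15 and 0.54 ± 0.15 (adjusted p = 0.452 and 0.107). In H460 it was at 0.31 ± 0.21 and 0.38 ± 0.21. Of the small MAF partners, MAFF was at 0.38 ± 0.18 and 0.52 ± 0.18 in A549 (adjusted p = 0.712 and 0.22), and MAFG and MAFK between 0.13 and 0.30. Among 36 other reported or candidate NRF2 targets, 30 were tested in A549, counting SQSTM1 and MAFG, which are also among the regulators. PTGR1, which reduces prostaglandins and alkenals, was called lower in total RNA at −0.64 ± 0.12 (adjusted p = 0.0371), where 0.247% of all genes were called lower. In polysomal RNA PTGR1 at −0.77 ± 0.12 (adjusted p = 0.00933) and CYP4F3, a fatty acid hydroxylase, at −1.31 ± 0.24 (adjusted p = 0.0158) were called lower, where 0.455% of all genes were. Of these 30, 23 were below 0 in total RNA and 25 in polysomal RNA, with medians of −0.17 and −0.18, where 48.4% and 47.5% of all genes were below 0. In H460 edgeR called 0 of 31 in each fraction, and 1 was at an unadjusted p under 0.05 in each, where 1.14% and 1.73% of all genes were. Of 38 antioxidant genes not taken as NRF2 targets here, 34 were tested in each line and edgeR called 0 in each of the 4 comparisons. In A549 4 and 6 of them were at an unadjusted p under 0.05, against 6.81% and 12.5% of all genes, and in H460 0 were. Their A549 medians were −0.067 in total and −0.008 in polysomal RNA.

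The members' mRNAs were not spread alike between total and polysomal RNA. In A549 siNT cells 18 of 34 members were higher in polysomal RNA (18.3% of all genes were) and 4 were lower (18.8% of all genes were). In H460 siNT cells 10 of 32 were higher (12.5% of all genes) and 4 lower (10.5% of all genes). All 10 that were higher and all 4 that were lower in H460 were called in the same direction in A549, and none was called in opposite directions. The share of all genes called alike in both lines is not given, so this overlap is not read as particular to the members. The members' median was 0.46 in A549 and 0.47 in H460, against −0.043 and −0.022 over all genes. CPM is relative to each library's own total, so these are differences in share, not in the number of mRNA molecules. Mitochondrial transcripts took 13.5% to 18% of counts in total RNA and 2.04% to 4.18% in polysomal RNA, and their part in these differences was not tested.

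The 4 members lower in polysomal RNA of both lines were the ferritins FTL and FTH1, SRXN1 and the haem transporter SLC48A1. Ferritin light and heavy chains form the shell that stores iron. In general, iron regulatory proteins bind a hairpin in the 5′ untranslated region of both mRNAs, the iron-responsive element (IRE), and hold back their translation when iron is low. The IRE loop stretch searched was CNNNNNCAGTG on the transcribed strand, and FTL holds it at transcribed bases 33 to 43, as do 599 of the 35116 windows (1.71%) somewhere in their first 50 transcribed bases. The stretch is shown because the ferritins had the largest shift between fractions among the members in A549, with the search motif in capitals. It is given for FTL only, and no search result is given for FTH1, SRXN1 or SLC48A1. Whether the IRE has a part in the shift was not tested.
FTL, chr19:48965334-48965358, plus strand: tctcttgCTTCAACAGTGtttggac

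FTL (ENSG00000087086, chromosome 19, 48965309 to 48966879) was at 9202, 10420 and 7486 CPM in A549 siNT total RNA and at 2817, 2290 and 2831 CPM in polysomal RNA. In H460 it was at 5684, 4961 and 4512 CPM in total RNA and 2782, 1861 and 1054 CPM in polysomal RNA. The fractions were far apart in both lines, and FTL was lower in polysomal RNA by a log2 difference of −1.76 ± 0.18 in A549 (adjusted p = 7.41e-06) and −1.44 ± 0.30 in H460 (adjusted p = 0.00534).

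FTH1 (ENSG00000167996, chromosome 11, 61964285 to 61967634) was at 5104, 5501 and 3925 CPM in total and 1512, 1122 and 1359 CPM in polysomal RNA of A549. In H460 it was at 2838, 2614 and 2518 CPM against 1738, 909 and 1016 CPM. The log2 differences were −1.85 ± 0.19 (adjusted p = 6.4e-06) and −1.15 ± 0.25 (adjusted p = 0.00614). Both ferritin genes have processed pseudogenes, and how the authors' counting divided reads between them is not given, so their levels are uncertain to that extent. Because of the ferritins, the members' summed share of counts was 2.46% to 2.76% in A549 siNT total RNA and 2.02% to 2.12% in polysomal RNA, whereas without the ferritins it was 1.11% to 1.22% and 1.66% to 1.67%.

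SRXN1, which repairs over-oxidised peroxiredoxins, was at 407.2, 533.2 and 391.0 CPM in total and 227.9, 289.6 and 212.3 CPM in polysomal RNA of A549. In H460 it was at 864.0, 817.0 and 899.6 against 496.4, 428.4 and 375.2 CPM. It was lower by −0.85 ± 0.21 and −1.005 ± 0.15 on the log2 scale (adjusted p = 0.00451 and 0.000676). SLC48A1 was lower by a smaller amount, −0.38 ± 0.13 in A549 (adjusted p = 0.0341) and −0.64 ± 0.21 in H460 (adjusted p = 0.0422). Its call was lost without any single library in A549, and without 5 of the 6 in H460.

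Its partner in the peroxide cycle, PRDX1, went the other way from SRXN1. PRDX1 was at 959.4, 921.8 and 853.4 CPM in total and 1696, 1606 and 1393 CPM in polysomal RNA of A549, and at 1659, 1664 and 1585 against 3577, 3865 and 3763 CPM in H460. It was higher in polysomal RNA by 0.80 ± 0.14 (adjusted p = 0.000573) and 1.18 ± 0.13 (adjusted p = 0.000167).

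NQO1 was the member with the largest rise in A549. It stood at 1156, 1104 and 1056 CPM in total and 2574, 2679 and 2685 CPM in polysomal RNA of A549, and at 1676, 1539 and 1827 against 4203, 4373 and 4300 CPM in H460. The fractions did not come near each other, and NQO1 was higher by 1.28 ± 0.14 (adjusted p = 9.68e-06) and 1.34 ± 0.13 (adjusted p = 0.000163). GSTM3, a cytosolic glutathione transferase, had the largest rise in H460, from 114.4, 93.4 and 106.6 CPM to 335.3, 299.8 and 305.5 CPM, a difference of 1.57 ± 0.16 (adjusted p = 0.000163). Its A549 level was far lower, and it was likewise higher in polysomal RNA there, by 1.01 ± 0.23 (adjusted p = 0.00316).

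Of the other largest rises, pirin (PIR), an iron-binding nuclear protein, was higher by 1.05 ± 0.15 in A549 and 1.42 ± 0.20 in H460. TXN was higher by 0.64 ± 0.18 and 1.09 ± 0.14, and OSGIN1, an oxidative stress-induced growth inhibitor, by 0.95 ± 0.20 and 0.95 ± 0.28, all 3 called in both lines. ALDH3A1 was higher by 1.00 ± 0.16 in A549 and stood at 0.85 ± 0.38 in H460, which did not pass (adjusted p = 0.124). All 5 NADPH-supplying enzymes were called higher in A549, by 0.45 (PGD) to 0.93 (TALDO1), where 18.3% of all genes were. TALDO1 alone was called in H460, where 12.5% of all genes were called higher. All 5 lay above 0 in H460 too, with a median of 0.589. None of the 5 conjugation and export genes was called in A549, nor any of the 4 tested in H460, and GCLC, GCLM, SLC7A11, GSR and TXNRD1 had differences between −0.35 and 0.15 without a call.

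**Figure D3:**
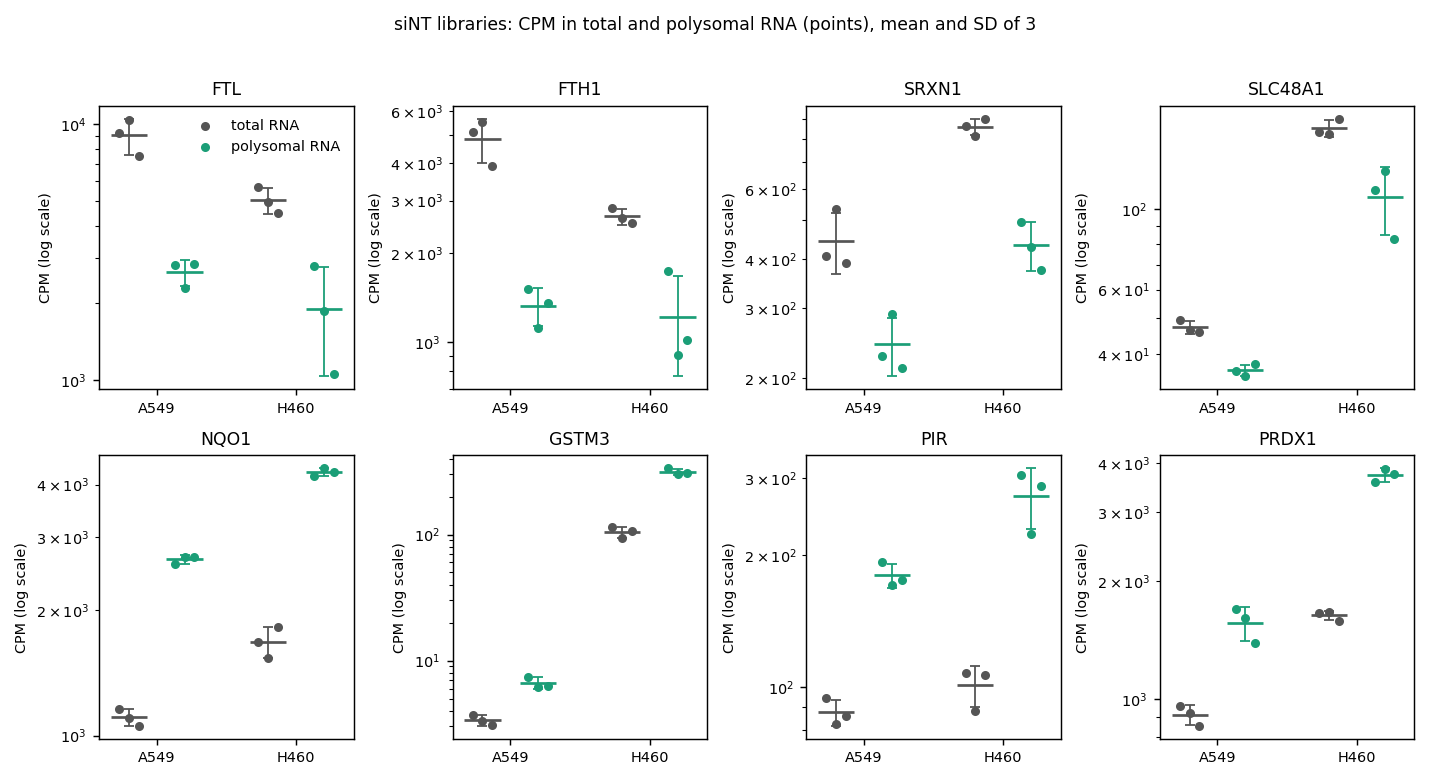
CPM on a log scale in each siNT library (points) with mean and SD of 3, in total (grey) and polysomal (green) RNA, for the 4 members lower in polysomal RNA of both lines (upper row) and 4 members higher in both (lower row). FTL and FTH1 show the widest gaps downwards, and NQO1, GSTM3, PIR and PRDX1 show gaps upwards in both lines.

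The H460 values were sensitive to the polysomal libraries numbered 3. Without those of siNT and siRIC, an alternative added after seeing the data, 23 of 32 members were called between fractions rather than 14, where 47.2% of all genes were called. With the replicate number as a block 21 of 32 were called, 16 higher and 5 lower, where 35.6% of all genes were called. The line difference in the polysomal-to-total difference was tested in the joint fit. No member passed (edgeR, 0 of 34, with 0% of all genes called), and DESeq2 called 0. At an unadjusted p under 0.05 there were 4 of 34 members, where 4.99% of all genes were. Of the regulators, only KEAP1 and NFE2L2 are given here. KEAP1 was called higher in polysomal RNA of A549, by 0.72 ± 0.18 (adjusted p = 0.00469), where 18.3% of all genes were. In H460 KEAP1 stood at 0.49 ± 0.31. NFE2L2 was at 0.25 ± 0.13 and 0.41 ± 0.26, uncalled in both.

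**Figure D4:**
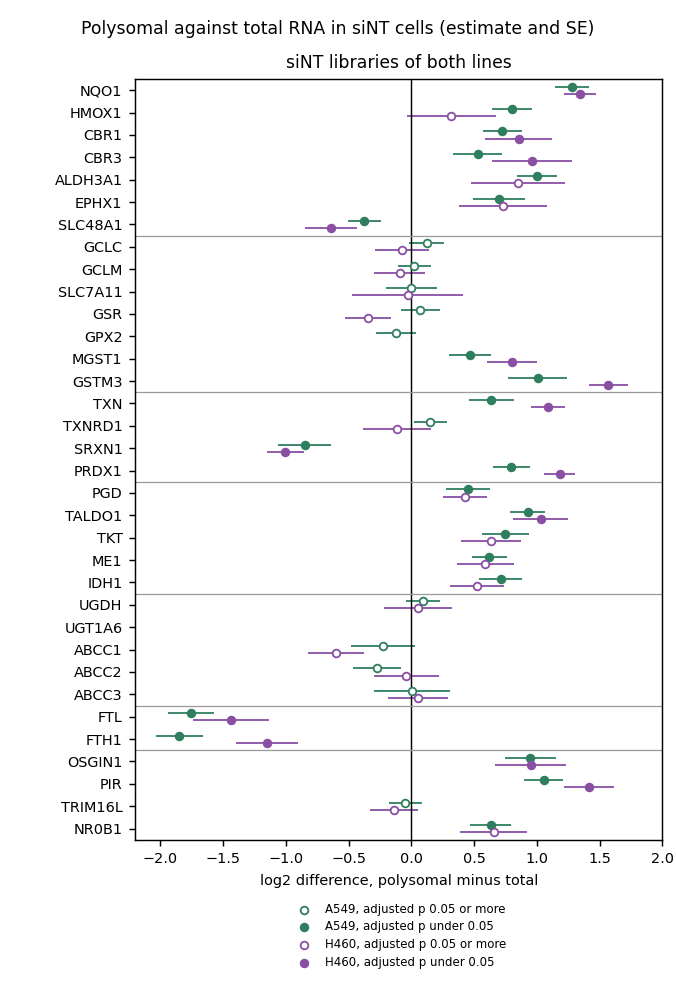
Log2 difference of polysomal against total RNA for each member in siNT cells of A549 (green) and H460 (purple), estimate and SE, n = 3 libraries per group; filled points have an adjusted p under 0.05 over all genes, GPX2 is drawn for A549 only and UGT1A6 is not drawn. FTL, FTH1, SRXN1 and SLC48A1 are filled left of 0 in both lines, and NQO1, GSTM3, PIR, TXN and PRDX1 are filled right of 0 in both.

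At baseline members differed between the lines in both directions. In siNT total RNA 13 of 34 members were higher in H460 (26.2% of all genes were) and 10 were lower (28.9% of all genes were). In polysomal RNA 16 were higher (29.9% of all genes) and 10 lower (28.3% of all genes), of which 13 and 8 were the same genes as in total RNA. The members' shares are read beside those of all genes, which were of like order. The line cannot be told apart from all else that separates the cultures.

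GPX2 was near absent from H460: the 3 siNT total RNA libraries held 3 counts together, against 8315 in A549, a ratio of 2310 (95% exact interval 789 to 11200, counting error only). In polysomal RNA the counts were 7629 and 3. UGT1A6 was scarce in both lines, with 44 counts in A549 and 2 in H460 total RNA, a ratio of 18.3 (4.77 to 156). In polysomal RNA it held 20 counts in A549 and 0 in H460, with a lower 95% exact limit of 3.39 for the ratio. Set against a floor of 3 counts over the H460 group, the ratio would be 4.58.

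HMOX1 was at 118.5, 127.0 and 114.2 CPM in A549 and 20.4, 24.4 and 18.4 CPM in H460 total RNA, a log2 difference of −2.51 ± 0.29 (adjusted p = 1.24e-07). GCLC, the catalytic subunit for glutathione synthesis, was at 150.2, 177.2 and 166.0 against 44.3, 45.8 and 47.0 CPM, a difference of −1.85 ± 0.18 (adjusted p = 5.4e-09). Its modifier subunit GCLM was at 127.2, 133.1 and 114.3 against 110.3, 117.1 and 120.4 CPM, with overlapping lines and a difference of −0.11 ± 0.16 (adjusted p = 0.589). The difference between the subunits was not tested. ABCC3 was lower in H460 by −1.56 ± 0.32 and UGDH by −1.02 ± 0.21, both called. Both ferritins were lower in H460 total RNA, FTL at −0.84 ± 0.26 (adjusted p = 0.00971) and FTH1 at −0.87 ± 0.23 (adjusted p = 0.00323), and neither was called in polysomal RNA.

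GSTM3 stood out on the other side, at 3.69, 3.30 and 3.06 CPM in A549 and 114.4, 93.4 and 106.6 CPM in H460, a log2 difference of 4.96 ± 0.22 (adjusted p = 1.02e-14). EPHX1 was at 156.5, 127.9 and 186.9 CPM in A549 and 774.0, 952.0 and 796.0 CPM in H460, a difference of 2.42 ± 0.32. CBR3 was higher by 1.85 ± 0.28 and SLC48A1 by 1.81 ± 0.18. SLC7A11, the cystine importer, was at 161.2, 185.7 and 241.8 CPM against 519.2, 529.7 and 847.8 CPM, a difference of 1.69 ± 0.37 (adjusted p = 0.000508). In each line its highest siNT total RNA library was that numbered 3, and the number is not taken as a batch shared between the lines. In H460 polysomal RNA the siNT library numbered 3 was at 1104 CPM against 362 and 387 CPM.

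The thioredoxin group apart from its reductase was higher in H460 total RNA. TXN was higher by 1.14 ± 0.16, SRXN1 by 0.96 ± 0.19 and PRDX1 by 0.84 ± 0.12, whereas TXNRD1 was at 0.07 ± 0.21 and did not pass (adjusted p = 0.792). NQO1 was higher in H460 by 0.61 ± 0.12 (adjusted p = 0.000207). The NADPH suppliers were split, with ME1 and IDH1 called higher, PGD and TKT called lower, and TALDO1 at 0.30 ± 0.18. NFE2L2 itself was at 70.1, 72.7 and 74.9 CPM in A549 and 76.9, 67.6 and 83.9 CPM in H460, a difference of 0.07 ± 0.20 (adjusted p = 0.795), and KEAP1 and BACH1 were not called either.

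**Figure D5:**
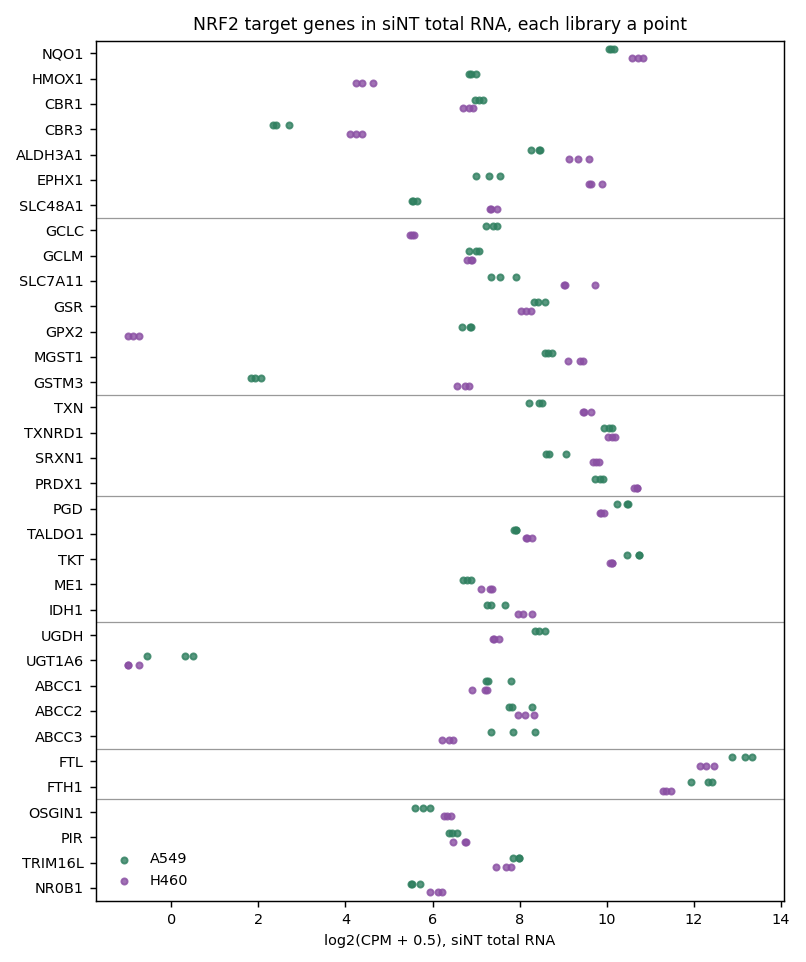
Log2(CPM + 0.5) of each member in the 3 siNT total RNA libraries of A549 (green) and H460 (purple), with grey lines between roles; positions are compared between lines within a gene, not between genes. GPX2, HMOX1, GCLC and ABCC3 are further left in H460, GSTM3, EPHX1, CBR3 and SLC7A11 are further right, and GCLM and TXNRD1 overlap.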

How the data were processed

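Total and polysomal RNA of A549 and H460 cells was sequenced in 24 libraries. The molecule field gives polyA RNA, whereas the protocol has a stranded total RNA kit with ribosomal depletion. Per the submitters' processing notes, bcl2fastq 2.20 was used and the genome build was GRCh38. Annotation, quantification version and filters: not given in the sources used here. What the authors deposited was unnormalized estimated counts per gene (merged salmon output), of which 9.4% were not whole; they were rounded.

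In R 4.3.3, genes were filtered by filterByExpr, scaled by TMM and tested with edgeR 4.0.16 (quasi-likelihood, Benjamini-Hochberg adjustment over all genes tested, threshold 0.05). Each line's 12 libraries formed a fit (8 residual degrees of freedom), and all 24 a joint fit for contrasts between lines (16). There were 13 comparisons. SE is the absolute log2 difference divided by the square root of F. The edgeR test was tested on simulated counts, and the outcome is not given here. Alternatives were DESeq2 1.42.0, RLE scaling, no filter, only the groups compared, a replicate block, and leaving out libraries.

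The members, gene lists and rules were chosen with earlier results of these data known. Values per library are given for members called with siRIC and for the 4 with the smallest p in each siRIC comparison, and for the 5 largest called differences in each direction between fractions and lines; some are given as differences only. Replicate numbers pair the libraries of a line, since the labels give each as a batch: deviations from group means correlated at 0.098 to 0.44 (A549) and 0.16 to 0.84 (H460) between libraries of equal number, and at most at 0.0497 and 0.2297 between different numbers. Library names carry other numbers whose meaning is not given, and no block was shared between the lines. The reported fits have no block. The labels do not say that replicates are separate cultures, so p-values measure the spread between these samples, which may be technical. No replicates agreed within sampling noise (chi-square per degree of freedom 8.82 to 184). Paralogs and pseudogenes (FTL, FTH1, UGT1A6, TRIM16L) may share reads.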

Additional observations from a re-analysis of the deposited data

How the results depend on the processing

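Directions of the members' medians with siRIC in A549 total and polysomal RNA held under every alternative run, but counts of calls did not, and the calls over all genes moved with them. The ratio medians turned in both lines, as given in the report. In A549 total RNA the 1 call (50 over all genes) became 2 with the replicate block (258), 2 with no filter on low counts (257) and 3 with only the groups compared (152), and 0 (lowest and highest) with any library of the groups left out. In A549 polysomal RNA the 1 call (104 over all genes) became 6 with the replicate block (540), 3 with DESeq2 (346), 4 with no filter (413) and 0 with only the groups compared (35), and ran from 0 to 3 with a library left out. For H460 polysomal against total RNA, calls ran from 9 to 18 with a library left out and were 23 without both polysomal libraries of number 3 (7031 over all genes, against 3347), and the median was 0.403 with no filter and 0.268 to 0.529 with a library left out. For H460 against A549 the median of 0.184 in total RNA was 0.263 with no filter and 0.114 to 0.271 with a library left out. The polysomal median of 0.427 was 0.183 without both libraries of number 3 and 0.109 (without H460 siNT number 3) to 0.429 with a library left out. The median of the line difference in the polysomal-to-total ratio was −0.102 with no filter, 0.148 without both libraries of number 3 and −0.092 to 0.11 with a library left out, so its sign is not settled. Leaving out a library turned 3 uncalled H460 estimates: UGDH in total (−0.041 to 0.022) and polysomal RNA (−0.457 to 0.204), and ALDH3A1 in polysomal RNA (−0.791 to 0.056). The replicate block called 21 rather than 14 members between H460 fractions (5187 genes in all) and 22 rather than 23 between lines in total RNA (9197 genes against 9102), and changed no call of a member with siRIC beyond those given in the report. Fewer samples bear on the left-out fits, and the other causes were not tested. For differences of ratios or lines, fitting only the groups compared equals the reported fit, and no value is given. Low counts of GPX2 and UGT1A6 in H460 limit their fold changes to intervals.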
